A study of Mus musculus with 8 samples.

Results

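Regions of open chromatin that lay inside protein-coding exons, away from the promoters of a basic gene annotation, were examined in EpH4 and EpRas cells. EpH4 is a mouse mammary gland epithelial line, and EpRas is its derivative transformed with an oncogenic H-Ras. Cells of each line received TGF-β (1 ng/ml) during 8 days or none, and 2 replicate libraries were made in each of the 4 groups, 8 in all. EpRas cells were grown in 4% serum and EpH4 cells in 10% serum, so that serum and Ras cannot be told apart, and each line is a single transformed or parental line. Accessible chromatin was mapped by FAIRE-seq, which sequences the DNA left free of crosslinked protein after formaldehyde fixation, and the deposited files list the peaks called in each library.

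The peaks of the 8 libraries were merged wherever they shared at least 1 bp, which gave 37230 regions, 36674 of them on chromosomes 1 to 19. A region was kept if its midpoint lay in an annotated coding (CDS) interval. The midpoint also had to lie more than 2 kb from every transcription start site (TSS) in the basic set of the GENCODE annotation. These coding-exon regions numbered 209 of the 36674, in 206 genes. They made up 0.834% of the 25061 regions outside promoters, whereas coding bases made up 1.195% of the bases outside promoters. A further 164 regions in coding exons lay within 2 kb of a TSS and were not counted. At this limit, the nearest regions kept were in Armc5 at 2001 bp, Klf4 at 2049 bp and Gdf15 at 2189 bp, and the nearest left out were in St6galnac4 at 1978 bp, Fbxl15 at 1947 bp and Lgals7 at 1927 bp. With the comprehensive GENCODE set, chosen after seeing the data, the rule kept 163 regions in place of 209. Some of the 209 thus lay within 2 kb of a TSS that the basic set leaves out.

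Most distal regulatory elements lie in introns or between genes, but a coding exon can also act as an enhancer or hold a transcription factor binding site, and its bases then serve both the reading frame and the factor. AP1, the dimer of Fos and Jun proteins, acts downstream of Ras and MAP kinase signaling and takes part in the response of epithelial cells to TGF-β. CTCF organizes chromatin loops, and ETS and RUNX factors are partners of AP1 at many enhancers.

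The following sequences show the kinds of coding-exon region found. Each is the 300 bp around the midpoint of a region, taken from the RefSeq GRCm38.p6 assembly (mm10) and written 5′ to 3′ on the coding strand. Capitals mark AP1 matches (TGAGTCA or its reverse complement TGACTCA) in the first 5 sequences and CpG dinucleotides in the last. Foxn2 (exon 2 of 6, chr17:88462722-88463021, plus strand) was called in every library and Npy5r (exon 2 of 2, chr8:66681337-66681636, minus strand) was called in every library from within a wholly coding window. Hspg2 (exon 2 of 97, chr4:137500963-137501262, plus strand) has its match just past the end of the exon. Ctnnal1 (exon 6 of 19, chr4:56837740-56838039, minus strand) was called in EpRas cells only and Nt5c1a (exon 5 of 6, chr4:123214076-123214375, plus strand) in EpH4 cells only. Scnn1a (exon 2 of 12, chr6:125331028-125331327, plus strand) is rich in CpG and holds no AP1 match.
Foxn2: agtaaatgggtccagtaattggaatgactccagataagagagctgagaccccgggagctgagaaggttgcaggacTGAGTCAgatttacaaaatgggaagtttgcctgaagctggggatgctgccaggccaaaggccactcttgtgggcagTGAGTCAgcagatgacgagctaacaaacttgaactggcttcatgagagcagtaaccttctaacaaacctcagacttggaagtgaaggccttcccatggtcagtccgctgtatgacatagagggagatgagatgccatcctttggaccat
Npy5r: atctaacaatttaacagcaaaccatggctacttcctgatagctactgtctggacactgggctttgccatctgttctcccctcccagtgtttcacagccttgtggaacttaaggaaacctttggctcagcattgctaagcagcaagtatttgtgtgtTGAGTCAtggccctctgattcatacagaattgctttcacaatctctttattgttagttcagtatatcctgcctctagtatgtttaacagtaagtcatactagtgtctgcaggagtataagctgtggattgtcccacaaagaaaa
Hspg2: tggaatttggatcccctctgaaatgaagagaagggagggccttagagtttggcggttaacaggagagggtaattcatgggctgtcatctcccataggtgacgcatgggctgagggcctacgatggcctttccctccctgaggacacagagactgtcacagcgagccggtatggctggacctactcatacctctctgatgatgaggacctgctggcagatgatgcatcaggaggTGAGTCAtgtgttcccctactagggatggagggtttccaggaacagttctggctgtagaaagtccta
Ctnnal1: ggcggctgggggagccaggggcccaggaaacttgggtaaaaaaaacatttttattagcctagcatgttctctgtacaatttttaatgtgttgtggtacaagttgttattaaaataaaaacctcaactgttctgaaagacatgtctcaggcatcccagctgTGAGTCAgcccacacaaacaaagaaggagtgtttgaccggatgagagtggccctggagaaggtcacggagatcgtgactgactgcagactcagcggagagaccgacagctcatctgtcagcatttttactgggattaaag
Nt5c1a: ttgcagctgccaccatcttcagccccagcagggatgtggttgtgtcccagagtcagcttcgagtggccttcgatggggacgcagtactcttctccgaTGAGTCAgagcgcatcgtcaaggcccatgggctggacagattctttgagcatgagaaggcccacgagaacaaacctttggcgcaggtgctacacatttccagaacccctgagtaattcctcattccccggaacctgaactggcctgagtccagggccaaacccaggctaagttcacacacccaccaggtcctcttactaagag
Scnn1a: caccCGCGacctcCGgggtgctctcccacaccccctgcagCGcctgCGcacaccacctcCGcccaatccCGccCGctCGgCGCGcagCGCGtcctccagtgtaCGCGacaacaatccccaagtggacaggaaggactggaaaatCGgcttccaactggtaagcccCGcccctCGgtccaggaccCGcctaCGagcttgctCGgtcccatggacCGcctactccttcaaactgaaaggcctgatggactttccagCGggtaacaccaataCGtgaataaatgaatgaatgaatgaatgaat

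In the Foxn2 window the coding bases ran from position 6 to 300, and both matches lay in them. In the Npy5r window all 300 bases were coding. In Hspg2 the coding bases ran from position 97 to 232 and the match began at position 234, so that its letters overlapped the splice donor. In Ctnnal1 the coding bases ran from position 138 to 300 and the match began at position 161. In Nt5c1a they ran from position 1 to 182 and the match began at position 98.

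The coding-exon regions were short, and most reached past the exon. Their width had a median of 272 bp (lowest 200 bp, highest 703 bp), close to the 278 bp of intronic regions. The CDS interval that held the midpoint had a median length of 156 bp, against 125 bp for all such intervals counted once and 177 bp when each is weighted by its length. The coding share of a region had a median of 53.0%, with 32 regions wholly coding and 89 less than 50% coding. The last exon of the transcript held 38 regions, the second exon 28 and the first exon 2. Intervals of more than 1 kb held 24 regions. Muc16, a giant membrane mucin, held 2 regions, one of them in an 11544-bp interval, and so did Jmjd1c, a histone demethylase family gene, and Nup210l, a nucleoporin-like gene; no gene held 3. A promoter region of the same gene was called in at least 1 library for 111 of the 209 regions, in all 8 libraries for 26 and in none for 98.

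Library size differed widely. The lists held 10821 to 27337 peaks, and the depth of each library is unknown because the files give no reads. The first replicate of TGF-β-treated EpRas cells stood apart with the longest list. It called 137 coding-exon regions and its second replicate called 77. In untreated EpRas cells the replicates called 72 and 65 regions, in EpH4 cells without TGF-β 68 and 59, and in EpH4 cells with it 95 and 50. Both TGF-β groups thus held 1 long and 1 short list, and a region missing from a list may be closed or may have fallen short of the peak threshold.

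**Figure D1:**
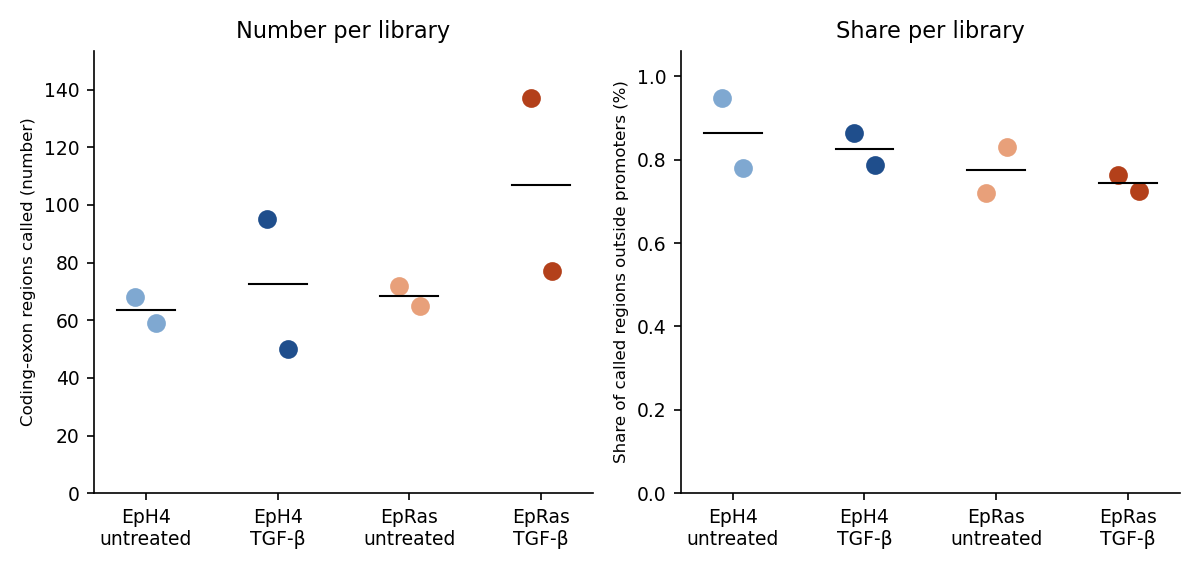
Left, number of coding-exon regions called in each library; right, their share (percent) of all called regions outside promoters. Each point is 1 library, 2 for each group, and the line is their mean. The first TGF-β-treated EpRas library called 137 regions, the highest number, but its share of 0.764% lay among those of the other libraries.

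As a share of the regions called outside promoters, coding-exon regions took 0.948% and 0.779% in untreated EpH4 cells and 0.864% and 0.788% after TGF-β. In EpRas cells they took 0.720% and 0.830% without and 0.764% and 0.725% with TGF-β. The mean was 0.760% ± 0.051 (SD, n = 4) in EpRas and 0.845% ± 0.079 (SD, n = 4) in EpH4 cells, and the libraries of the lines overlapped. The difference of -0.085 percentage points did not pass the exact permutation test over libraries (two-sided p = 0.114, adjusted p = 0.274 over 8 tests, smallest possible p 0.0286). TGF-β-treated libraries differed from untreated ones by -0.034 points (exact permutation p = 0.629, adjusted p = 0.629). The TGF-β effect differed between the lines by 0.0063 points (exact permutation p = 1, smallest possible 0.0556). Each of these 3 differences changed sign under at least 1 other setting.

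Few of the regions were called in every library. A single library called 80 of the 209 (38.3%), against 31.4% of all autosomal regions and 35.3% of intronic ones. Of these 80, 36 came from the first TGF-β-treated EpRas library. All 8 libraries called 12 regions (5.74%), against 11.5% of all autosomal regions and 8.53% of intronic ones. Within a group, both replicates called 42 of 85 regions called by either in untreated EpH4 cells, 42 of 103 in EpH4 cells given TGF-β, 45 of 92 in EpRas cells without TGF-β and 67 of 147 in EpRas cells given it. These shares were 49.4%, 40.8%, 48.9% and 45.6%, against 49.0%, 43.2%, 49.7% and 49.8% of intronic regions. The share of coding-exon regions called in a library was 37.3% ± 13.1 (SD, n = 8), and that of intronic regions was 39.5% ± 15.2 (SD, n = 8). The difference of -2.21 points (lower in 6 of 8 libraries) did not pass the exact paired permutation test (two-sided p = 0.156, adjusted p = 0.274).

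**Figure D2:**
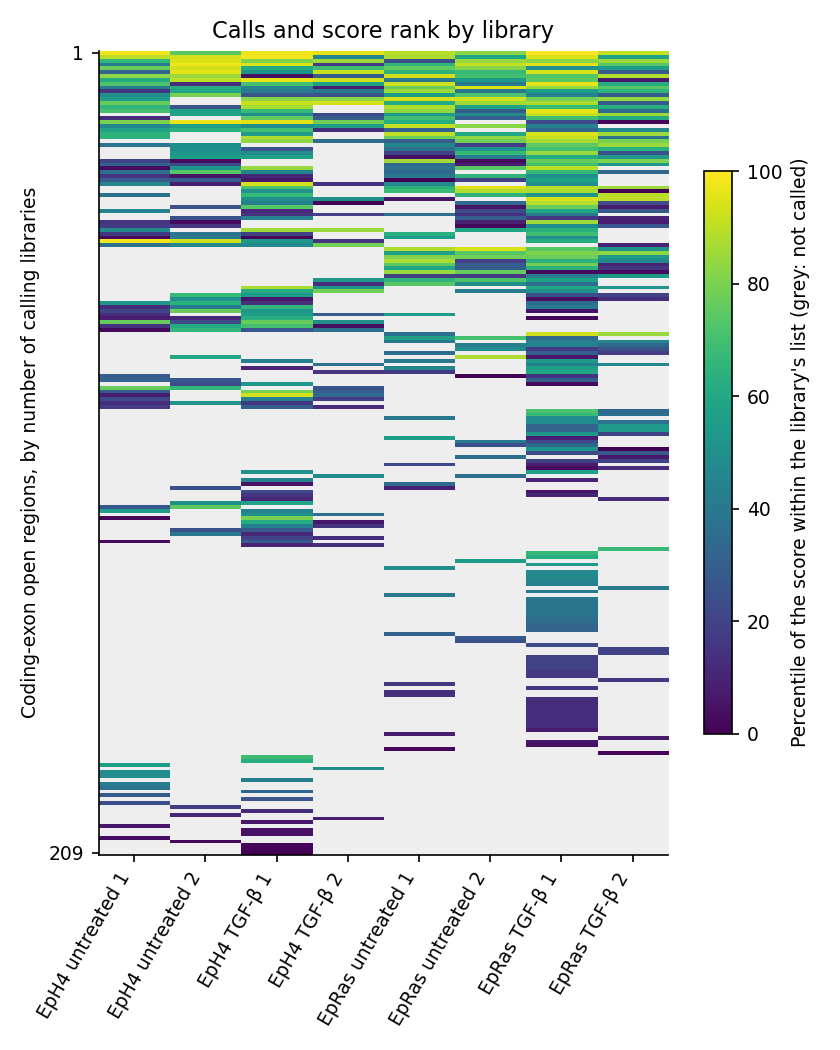
Each row is 1 of the 209 coding-exon regions, ordered by the number of calling libraries and then by the number of EpRas libraries; each column is a library. Color gives the percentile of the score within that library's list from 0 to 100, and grey means not called. The 12 regions called in all 8 libraries are at the top, and the first TGF-β-treated EpRas library alone called 36.

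The 12 regions called in all 8 libraries lay in Foxn2, Wwp2, Myof, Usp43, Rhbdl2, Hspg2, Eya1, Atp6v0a4, Npy5r, Slco2a1, Dsc2 and Aspscr1. Their strength is given as the percentile of the score within each list, in the order of both untreated EpH4, both TGF-β-treated EpH4, both untreated EpRas and both TGF-β-treated EpRas libraries. Foxn2, which encodes a forkhead transcription factor, stood at 97.9, 74.3, 97.3, 95.7, 89.4, 82.4, 99.3 and 91.2, the highest mean percentile of the 209 regions. Wwp2, a HECT-type ubiquitin ligase gene (exon 4 of 24, chr8:107457737-107458125), stood at 90.2, 93.6, 98.2, 45.2, 87.8, 59.4, 94.8 and 57.8. Hspg2, which encodes the basement membrane proteoglycan perlecan, stood at 32.7, 95.9, 53.0, 91.6, 64.5, 67.0, 93.9 and 27.8. The replicates of Hspg2 were thus far apart in 3 of the 4 groups, whereas those of Foxn2 were close except in untreated EpH4 cells.

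Npy5r, a neuropeptide Y receptor gene whose region was wholly coding, stood at 72.2, 12.9, 70.02, 56.9, 92.9, 40.6, 96.7 and 62.3, a wide range in which the lines overlapped. Eya1, a phosphatase and transcriptional coactivator gene (exon 6 of 18, chr1:14273941-14274251), ranged from 4.10 to 93.6. Dsc2, which encodes the desmosomal cadherin desmocollin 2 (exon 14 of 17), ranged from 15.5 to 85.2. The region of Aspscr1, a gene for a tether of glucose transporter vesicles, was only 8.13% coding, the lowest coding share of the 209. A promoter of the same gene was called in all 8 libraries for Foxn2 and in none for Eya1, Atp6v0a4, Npy5r and Dsc2. Thus 4 of the 12 regions were called in every library with no called promoter of their gene. Over all 209 regions, 98 (46.9%) had no called promoter of their gene.

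Regions that separated the lines were next examined. All 4 EpRas libraries and no EpH4 library called 8 coding-exon regions (3.83%), against 1.98% of all autosomal regions and 2.25% of those outside promoters. They lay in Vinac1, Ctnnal1, Dtd2, Tnfrsf26, Ppp1r12b, Zfp91, Gm12394 and Trps1, and the last 3 are named because they complete the count. Vinac1, a vinculin and α-catenin family gene (exon 3 of 7, chr2:129038287-129038681), stood at 87.9 and 93.8 in untreated and at 74.1 and 51.4 in TGF-β-treated EpRas cells, and its region was wholly coding. Ctnnal1, which encodes α-catulin (chr4:56837690-56838089), stood at 57.1 and 74.6 in untreated and at 80.5 and 82.9 in TGF-β-treated EpRas cells. The promoter of Ctnnal1 was called in all 8 libraries, so that its exon 6 but not its promoter separated the lines.

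Ppp1r12b, a targeting subunit of myosin phosphatase (exon 2 of 24, chr1:134902264-134902657), stood at 74.7, 30.3, 78.3 and 10.2 in the EpRas libraries. Zfp91, a zinc finger ubiquitin ligase gene (exon 10 of 11, chr19:12770901-12771153), stood at 59.4, 29.4, 64.2 and 15.4. Both of these genes also had a promoter called in all 8 libraries. Trps1, a GATA-type repressor of the mammary epithelium (exon 6 of 7, chr15:50664566-50664931), stood at 19.8, 16.8, 42.6 and 55.4, with no promoter of the gene called, and lay 163 kb from the nearest TSS, the longest such distance of the 209. Tnfrsf26, a TNF receptor family gene, stood at 87.2, 18.4, 64.5 and 46.4. Dtd2, a tRNA deacylase gene, stood at 81.2, 78.8, 77.2 and 54.0, but only 11.3% of its region was coding. The Gm12394 region is uncertain, since 92.3% of its 32-base words occur elsewhere on chromosomes 1 to 19, and reads from the copies cannot be told apart.

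The converse pattern, called in all 4 EpH4 libraries and no EpRas library, held for 3 regions (1.44%), among them those in Nt5c1a and Tpra1. It held for 0.755% of all autosomal regions, 0.874% of those outside promoters and 0.832% of intronic ones. Nt5c1a, a cytosolic nucleotidase gene (chr4:123214061-123214391), stood at 76.2 and 23.4 in untreated and at 76.4 and 49.2 in TGF-β-treated EpH4 cells. Tpra1, a membrane protein gene (exon 6 of 12, chr6:88909194-88909885), stood at 14.4, 61.5, 70.5 and 4.05. Counting any library, 84 regions were called only in EpRas cells (40.2%, against 36.7% of all autosomal regions), 47 only in EpH4 cells (22.5%, against 14.2%) and 78 in both lines (37.3%, against 49.1%). The autosomal shares include promoter regions, of which 18.2% were called in all 8 libraries, against 8.47% of regions outside promoters. Shares outside promoters are not given for these counts of any library, so whether the contrasts are particular to coding exons was not tested. With the same number of peaks from every list 6 of 134 regions separated the lines in place of 11 of 209. At peaks scored at or above the median 3 of 125 did so. The set of regions was thus itself smaller under both settings, and the shares of all autosomal regions are not given for them.

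TGF-β alone separated few of the regions. All 4 TGF-β-treated libraries and no untreated library called 1 region (0.478%, against 0.324% of all autosomal regions), in Adamts16, a secreted metalloproteinase gene (exon 7 of 23, chr13:70792997-70793332). It stood at 87.2 and 52.9 in EpH4 and at 60.4 and 51.6 in EpRas cells. The opposite pattern held for 0 of the 209 regions, against 0.0191% of all autosomal regions. Without any 1 of 3 libraries (the first TGF-β-treated EpH4 or either untreated EpRas library) the count was 2, and at peaks scored at or above the median it was 0 of 125.

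Within the lines, both TGF-β-treated and neither untreated EpRas library called 14 regions (6.70%, against 7.65% of all autosomal regions), and the reverse held for 0 (against 0.938%). In EpH4 cells, 11 regions appeared in both treated and neither untreated library (5.26%, against 3.28%) and 7 did the reverse (3.35%, against 1.7%). Of intronic regions, 9.24% were gained and 0.816% lost by these rules in EpRas cells. In EpH4 cells 3.37% of intronic regions were gained and 1.64% lost. Adamts16 was the single region gained in both lines. Itgb3, the integrin β3 gene (exon 8 of 15, chr11:104640906-104641262), was gained in EpH4 cells at percentiles of 49.3 and 49.2. In EpRas cells it was called at 6.18 in 1 untreated library and at 94.0 and 90.0 in the treated ones. The 7 regions lost in EpH4 cells were in Prox2, Klf4, Lama3, Otop1, Arhgef28, Zfp961 and Atn1. Klf4, a Krüppel-like transcription factor gene of epithelial cells (exon 3 of 5, chr4:55530288-55530545), stood at 27.7 and 74.6 in untreated EpH4 cells and was called in no other library.

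The pair of EpRas libraries with TGF-β alone called 10 regions (4.78%). The pattern held for 4.2% of all autosomal regions, but for 5.30% of those outside promoters and 5.37% of intronic ones. Clint1, a clathrin interactor gene (exon 2 of 12), stood at 71.2 and 34.3, and Calr4, a calreticulin family gene (exon 3 of 8), at 67.4 and 36.6. Mcidas, a regulator of multiciliated cells (exon 7 of 7), stood at 49.2 and 38.2. Lbhd2 and Wdr66 both stood at 32.8 and 54.0. The remaining 5 regions lay in Camk2g, Pkhd1l1, Rin2, Gramd4 and Pcnx, and none of the 10 exceeded a percentile of 71.2. This count requires the library with the longest list, and an exact permutation of 2 against 2 libraries within a line cannot pass, so the count was not tested.

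AP1 was the most frequent of the 6 motifs searched in the 300 bp windows. An AP1 match was present in 80 of the 209 coding-exon regions (38.3%), against 45.8% of intronic and 43.1% of intergenic regions. Of 155452 windows centered on coding exons that no peak touched, 4.21% held one. Of the 173 regions called in at least 1 library other than the first TGF-β-treated EpRas library, 37.6% held an AP1 match. The matches gathered near the midpoint, at 3.16 per kb within 50 bp upstream and 1.82 per kb within 50 bp downstream along the chromosome, against 0.116 and 0.123 per kb in the untouched exons.

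**Figure D3:**
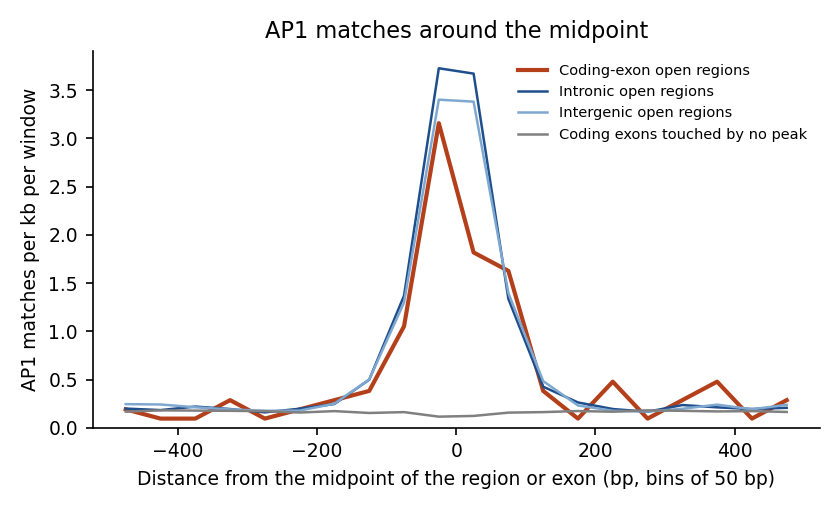
AP1 matches per kb (vertical axis) in bins of 50 bp by distance from the midpoint (horizontal axis, bp), for coding-exon, intronic and intergenic regions and for coding exons touched by no peak. All 3 classes of open region peak at the midpoint, at 3.16 per kb for coding-exon and 3.73 per kb for intronic regions, and the untouched exons show no peak.

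In each library, the share of called coding-exon regions with an AP1 match was compared with that of intronic regions. It was 47.1% and 42.4% in untreated EpH4, 48.4% and 48.0% in EpH4 with TGF-β, 41.7% and 46.2% in untreated EpRas and 40.1% and 46.8% in EpRas with TGF-β. The mean was 45.1% ± 3.2 (SD, n = 8) for coding-exon and 50.8% ± 1.8 (SD, n = 8) for intronic regions. The share was lower in coding exons in 8 of 8 libraries, with a mean difference of -5.77 points. The exact paired permutation test gave its smallest possible value (two-sided p = 0.00781), which did not pass after adjustment over the 8 tests (adjusted p = 0.0625), and the lists share many regions, so that p covers the spread between libraries only. At peaks scored at or above the median the difference was -1.37 points (exact paired permutation p = 0.594). Against intergenic regions it was -2.96 points (p = 0.0391 by the same exact test), and with CCDS transcripts alone -3.15 points (exact p = 0.0234).

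**Figure D4:**
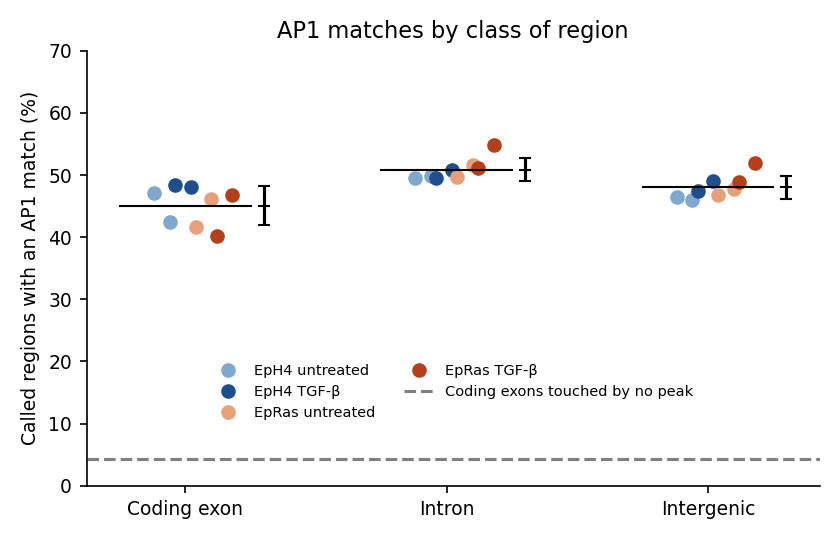
Share (percent) of called regions with an AP1 match in each library, for coding-exon, intronic and intergenic regions. Points are libraries, lines are means of 8 libraries with SD bars, and the dashed line is the 4.21% of coding exons touched by no peak. Each library has a lower share in coding exons than in introns, and all shares lie well above the dashed line.

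Between the lines the AP1 share differed by -2.78 points (43.7% ± 3.3 in EpRas and 46.5% ± 2.8 in EpH4 cells, SD, n = 4; exact permutation p = 0.171, adjusted p = 0.274). Between treatments it differed by 1.52 points (45.8% ± 3.9 with and 44.3% ± 2.7 without TGF-β, SD, n = 4; exact permutation p = 0.571, adjusted p = 0.629). Both calls depended on the peaks used. With equal numbers of peaks the TGF-β difference was 7.53 points, and at peaks scored at or above the median the line difference was -9.47 points, each at the smallest possible exact permutation p of 0.0286.

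AP1 matches were most frequent in the regions called most often. Regions called in 5 to 8 libraries held one in 29 of 51 cases (56.9%, Wilson 95% interval 43.3 to 69.5%). Those called in 2 to 4 libraries held one in 20 of 78 (25.6%, interval 17.3 to 36.3%) and those called in 1 library in 31 of 80 (38.8%, interval 28.8 to 49.7%). The order was therefore not steady, whereas the shares of intronic regions were 37.2%, 46.7% and 56.1% for 1, 2 to 4 and 5 to 8 libraries. Of the 12 regions called everywhere, 9 held an AP1 match, and those of Myof, Rhbdl2 and Aspscr1 did not. Among intronic regions called everywhere, 607 of 1076 held one (56.4%). Of the 11 regions that separated the lines, 3 of 8 in EpRas cells (Ctnnal1, Tnfrsf26 and Trps1) and 2 of 3 in EpH4 cells (Nt5c1a and Tpra1) held one. Over all 209 coding-exon regions the number was 80 (38.3%), and these small counts were not tested. The Adamts16 region held none.

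**Figure D5:**
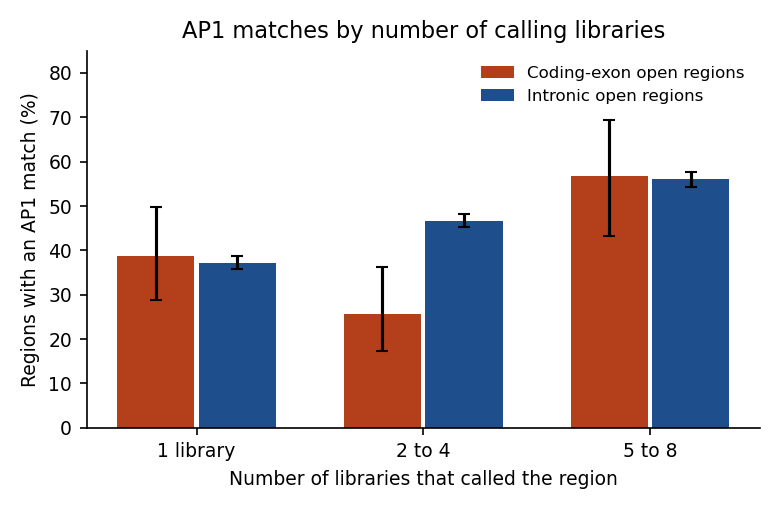
Share (percent) of coding-exon and intronic regions with an AP1 match by the number of libraries that called them; bars are shares and error bars Wilson 95% intervals, which cover counting error only. Coding-exon shares were 38.8%, 25.6% and 56.9%, and intronic shares 37.2%, 46.7% and 56.1%.

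AP1 matches lay both in the coding bases and beside them. Of 88 matches in the 80 windows, 49 were wholly coding and 39 wholly outside. The rule places coding bases at the center of each window, where matches were densest, so densities in coding and other bases were not compared. Both strands of the AP1 sequence begin with the letters of a stop codon, so that a match cannot start at codon position 1 of a reading frame. Of the 49 coding matches, 0 started at position 1, 15 at position 2 and 34 at position 3. In all coding intervals, open or not, the numbers were 0, 1799 and 2046. Foxn2, one of 8 regions with 2 matches, had one in each permitted position (2 and 3), and the matches of Npy5r, Ctnnal1 and Nt5c1a started at position 3.

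Of the 39 matches outside coding bases, 24 lay beyond the end and 15 before the start of the coding interval. The letters TGAGTCA resemble a splice donor, and 10 of the 39 (25.6%) began at the second base of the intron, as in Hspg2, Eya1, Dsc2 and Tln2. The others were in Aox2, Mark1, Ankfy1, Cabp4, Clcn1 and Sema7a. In the windows of untouched exons 706 of 4344 matches outside coding bases (16.3%) did so, and of all coding intervals followed by a donor 0.550% had this form. In open regions the matches gathered near a midpoint that the rule places in coding bases, which favors positions close to the exon edge. Windows of untouched exons were centered on the exon, and their matches showed no such gathering. The shares of 25.6% and 16.3% are therefore not comparable, and a preference for the donor was not tested. The genes with a match at the donor were singled out after their values were seen. Tln2, the actin-binding talin 2 gene (exon 54 of 58, chr9:67229186-67229478), was called in 6 libraries, at percentiles of 38.2 to 91.2.

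The other motifs were less frequent. The CTCF consensus was present in 15 coding-exon regions (7.18%), against 4.96% of intronic and 6.53% of intergenic regions and 0.227% of untouched exons. Of these 15, 10 were called in 1 library, 1 was called in at least 5, and 1 also held an AP1 match. An ETS match (any of ACGGAAA and ACGGAAG and their forms CCGGAAA and CCGGAAG that begin with C) was present in 23 regions (11.005%), against 5.97% of intronic regions and 7.18% of untouched exons, so that part of the excess over introns was also seen in exons that were not open. RUNX (TGTGGTT) was present in 12.4%, against 14.5% of intronic regions and 5.50% of untouched exons. TEAD (GGAATGT) was present in 8.13%, against 9.87% and 4.00%. GRHL (AACCNGTT) was present in 2.87%, against 2.72% and 2.25%. All were searched on both strands, and no match says only that these letters are not in the window.

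Coding-exon regions were richer in CpG than other distal regions. Their GC content had a median of 50.7%, against 46.9% in intronic regions, and their observed over expected CpG ratio a median of 0.308, against 0.204. Regions in other exons, with the midpoint outside coding bases, had medians of 48.3% and 0.237. In the 300 bp windows, median GC was 50.7% for coding-exon regions, 46.7% for intronic regions and 48.7% for coding exons touched by no peak. Part of the GC excess was therefore also seen in exons that were not open. A GC content of at least 50% with a CpG ratio of at least 0.6 defined 18 CpG-island-like regions (8.61%). The share was 1.21% of intronic, 4.36% of other exonic and 58.3% of promoter regions. Only 2 of the 18 held an AP1 match (Urad and Nkx2-2), against 78 of the other 191. Their CDS intervals had a median of 366 bp, against 149 bp for the rest.

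Spaca6, a sperm membrane protein gene (exon 7 of 9, chr17:17837865-17838490), was the most widely called of these, in 7 libraries at percentiles of 25.8 to 88.1. Scnn1a, the epithelial sodium channel α-subunit gene, was called in 6 libraries, at 45.7 and 8.26 in untreated and 93.3 and 13.7 in treated EpH4 libraries, and at 48.3 and 49.2 in the first replicates of untreated and treated EpRas cells. Tchh, a hair follicle structural protein gene whose exon 2 is 4659 coding bases long, was called in all 4 EpH4 libraries and in 1 EpRas library. Srcin1, a Src kinase regulator gene, was called in 3 EpRas libraries at 40.2, 44.1 and 46.4, and Rab6b in 1 EpH4 library at 49.2. The CpG-island-like share of called coding-exon regions differed by -1.87 points between EpRas and EpH4 cells (8.49% ± 0.95 and 10.4% ± 4.0, SD, n = 4; exact permutation p = 0.429, adjusted p = 0.571). It differed by -3.37 points between TGF-β-treated and untreated libraries (7.74% ± 1.23 and 11.1% ± 3.2, SD, n = 4; exact permutation p = 0.114, adjusted p = 0.274), and at peaks scored at or above the median by 2.43 points in the other direction (exact permutation p = 0.0286, the smallest possible).

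Gene groups with a role in epithelial and mesenchymal states were then counted among the 17165 genes with an eligible coding interval, of which 206 held a coding-exon region. Of 38 matrix and mesenchymal genes, 4 held one, among them Hspg2, Lama3 and Lama5, which encode perlecan and laminin α-chains. Lama3 was called in both untreated EpH4 libraries at 20.9 and 2.89, in no treated one, and in all EpRas libraries at 86.3, 3.22, 76.5 and 80.6. Lama5 was called in 4 libraries, of which 3 were EpH4. Hspg2, Lama3 and Lama5 therefore followed no common pattern across the groups.

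Of 43 junction and scaffold genes, 2 held a region, Dsc2 and Tjp1, the latter called in 1 untreated and 1 TGF-β-treated EpH4 library at 1.75 and 79.3. Of 22 actin cytoskeleton genes 1 did (Tln2), and of 23 genes of the TGF-β pathway 1 did (Bmpr1a, a BMP receptor gene, called in 1 TGF-β-treated EpRas library at 20.5). Of 30 mammary identity and Hippo pathway genes 3 did. Wwtr1, which encodes the Hippo effector TAZ (exon 3 of 7, chr3:57501675-57502058), was called in 7 libraries at 22.3 to 91.1, highest in both TGF-β-treated EpRas libraries. Klf4 was called in 2 libraries and Tfap2a in 1. Of 27 Ras and MAP kinase genes and of 30 AP1, ETS, RUNX and EMT factor genes, 0 held one. Among 447 zinc finger genes 4 held one, among 112 genes of homeobox, forkhead and related families 2 (Foxn2 and Nkx2-2), and among 327 mucin, olfactory receptor and other clustered genes 3. In Hras itself, all 6 coding intervals lay within 2 kb of a TSS, and none was touched by a region in either line.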

How the data were processed

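FAIRE-seq peaks of 8 libraries (4 groups, 2 biological replicates each) were analyzed, with groups from the labels. The authors trimmed reads from an Ion Proton instrument, mapped them to mm10 with Bowtie2 and called peaks in each library with MACS2 2.0.9. The deposited score of each peak has no stated meaning and served only for ranks and for 1 filter. Control samples and duplicate handling are not given in the sources used here. Depth is unknown, a longer list may come from a deeper library, and intervals cover counting error only.

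Peaks sharing at least 1 bp were merged, and midpoints were placed on GENCODE vM21 (basic set, 77198 TSSs). A library called a region if any of its peaks overlapped it. Sequence was RefSeq GRCm38.p6. AP1, ETS, RUNX, TEAD, GRHL and the CTCF consensus were searched in 300 bp windows. Regions and gene lists were chosen with earlier results of these data known. Genes named were those called in all libraries or separating groups, ranked by mean score percentile, those with several regions or AP1 matches, the CpG-island-like ones, those in the lists, and Hras, with exceptions said beside them. Tests were exact permutations over libraries, with Benjamini-Hochberg adjustment over 8 tests, which measure the spread between these samples. Scripts used Python 3.11.15, numpy 2.4.6 and pandas 2.3.3 and were tested on simulated data. Alternatives covered the peaks, coverage, TSS distance, annotation, motif window, library left out and replicate block. By 6 correlations between groups (-0.055 to 0.0019), replicate numbers paired no samples. The first replicate nevertheless called more coding-exon regions than the second in each of the 4 groups. The 2 coding regions on chromosome X were not used. The values of some regions are not reported here.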

Additional observations from a re-analysis of the deposited data

Results flagged for a closer look

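The first replicate of TGF-β-treated EpRas cells called 137 coding-exon regions, far above the other 3 EpRas libraries (65, 72 and 77), and its list was the longest with 27337 peaks. Chance alone marks about 1 in 20 such groups. Without this library 170 coding-exon regions remained in place of 209 when the peaks were merged anew.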

How the results depend on the processing

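The files hold no depth, so a region absent from a list cannot be called closed. The number of coding-exon regions was 134 with equal numbers of peaks per list, 125 at peaks scored at or above the median and 120 for regions at least 50% coding, and 170 to 210 with 1 library left out. It was 163 with the comprehensive annotation. Differences in percentage points follow. At peaks scored at or above the median, the line difference of the coding-exon share was 0.0963, that of TGF-β effects between the lines -0.224, the AP1 difference from introns -1.37, the AP1 line difference -9.47, and the CpG-island-like line and TGF-β differences 1.24 and 2.43 (the latter at an exact permutation p of 0.0286). There 3 regions separated the lines, 0 the treatments, and 2 were called in all libraries. With equal numbers of peaks, the difference of TGF-β effects was -0.197, the AP1 line and TGF-β differences 0.940 and 7.53, and 6 regions separated the lines and 4 were called in all libraries. For regions at least 50% coding, the AP1 share differed from introns by -16.9, recurrence by -10.8 and the CpG-island-like share by -7.58 with TGF-β (exact permutation p = 0.0286). This limit keeps fewer of the widely called regions, whose median coding share was 28.3% in 8 libraries against 58.8% in 1, while introns had no such limit, so it is no test of recurrence or of AP1 against introns. There 3 regions separated the lines, 0 the treatments and 2 were called in all libraries. With the midpoint of each library's own peak, the TGF-β difference of the coding-exon share was 0.0186. With calls needing 50% coverage, the difference of TGF-β effects was -0.0152. Over 1 kb from a TSS, the CpG-island-like line difference was 0.484. With the comprehensive annotation, chosen after seeing the data, recurrence differed by -3.28 (exact paired permutation p = 0.0391), the AP1 share by -3.72 from introns (exact paired permutation p = 0.0781) and by -1.86 with TGF-β. With 1 library left out, the coding-exon share differed by -0.113 to -0.0534 between lines, by -0.0631 to 0.0044 with TGF-β and by -0.0678 to 0.0910 between TGF-β effects. Recurrence differed by -3.03 to -1.30, and the AP1 share by -6.98 to -5.39 from introns, by -5.05 to -1.10 between lines and by 0.667 to 2.67 with TGF-β. The CpG-island-like share differed by -2.87 to 0.616 between lines, the highest without the second untreated EpH4 library, and by -4.72 to -2.03 with TGF-β, where it reached an exact permutation p of 0.0286 without the second untreated EpRas library (-4.59). Regions separating the lines numbered 11 to 15, those separating the treatments 1 to 2 and those called in all libraries 11 to 15. The cause of these shifts was not tested, and counts over all autosomal regions are not given for these settings. Permuting within replicate numbers (the replicate block) gave an exact permutation p = 0.167 for the line and p = 0.611 for the TGF-β difference of the coding-exon share (-0.085 and -0.034 points), and p = 0.222, 0.556, 0.556 and 0.111 for the AP1 and CpG-island-like differences, so that no call changed. No gene held 3 or more regions, so that alternative left the set as it was. Leaving out the 3 regions with more than 50% of their 32-base words elsewhere, also chosen after seeing the data, left 206 regions and 10 that separated the lines.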

Other observations

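Among the coding-exon regions called in 5 to 8 libraries were further genes with no listed role. Asb4, which encodes a substrate receptor of ubiquitin ligases (exon 5 of 6, chr6:5429447-5430120), held 2 AP1 matches and was called in 7 libraries. Its percentile was 80.2, 96.998, 95.6 and 78.4 in the EpH4 libraries, 61.8 in 1 untreated EpRas library and 21.9 and 0.651 in the TGF-β-treated ones. Its score thus ranked higher in each EpH4 library than in any EpRas library that called it. Gnai2, an inhibitory G protein α-subunit gene (exon 4 of 9), was called in 5 libraries at 47.8 to 85.8.

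Armc6 and Gsto1, each with 2 AP1 matches, were called only in EpH4 cells, both in the first untreated and both TGF-β-treated libraries, at 29.1, 79.5 and 29.8 and at 21.6, 44.5 and 17.2. Crybg1, a crystallin domain gene with 2 AP1 matches, was called in both TGF-β-treated EpH4 libraries at 61.5 and 79.2 and in 1 untreated and 1 treated EpRas library at 42.5 and 50.3. These values are a description, and no test was made.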
